A study of Mus musculus with 8 samples.

Results

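The genes described here are 46 mouse genes of the interferon response and of antigen presentation, listed by symbol as interferon receptors, interferon regulatory factors (IRFs) and Stat2, response regulators, RNA sensors, antiviral effectors, MHC class I molecules, the peptide transporter, and the immunoproteasome with its activator. The choice is by name, but it was made with earlier results of these data known. Of the 46, 44 had an array probe with a matching symbol, older symbols included, and all 44 were among the 25150 features tested. The remaining 2, the MHC class I heavy chain gene H2-D1 and the proteasome activator gene Psme2, had no probe matched by symbol and were not analysed here. A gene with several probes is represented by its brightest. Of the 44, 25 had 1 probe and 19 had several, and in 12 of those 19 another probe differed in a call or a direction, as given below.

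Interferons are secreted signals of infection. Type I interferons bind the receptor chains Ifnar1 and Ifnar2, and interferon gamma binds Ifngr1 and Ifngr2. The receptors act through JAK kinases and STAT proteins, which together with IRF proteins bind short promoter elements such as the ISRE and turn on genes that block viruses, cut proteins into peptides and load these peptides on MHC class I molecules at the cell surface. Embryonic stem (ES) cells are known for a weak interferon response and for low MHC class I.

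Messenger RNA was measured on dual-colour arrays of long oligonucleotides in 4 clonal lines made from mouse ES cells of the IB10 subclone of E14. The lines were transduced with pLKO-puro lentivirus carrying a short hairpin RNA, either against Taf5, a subunit of the general transcription factor TFIID (Taf5-kd), or a control hairpin (control-kd). All 4 lines were thus transduced, selected with puromycin and expanded from picked colonies, and all cells, the parental ones included, were grown on gelatin in serum and LIF. Each group held 2 lines, each line is 1 clone grown in duplicate, and each culture was set on 1 array against a common RNA pool of the parental cells, with the dyes exchanged between the 2 arrays of a line. Every level below is a log2 ratio to that parental pool with the dye term removed, so 0 is the parental level, a difference of 1 is a doubling, and levels of different genes cannot be set against each other.

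The median signal of the sample channel lay between 123 and 186 intensity units per array, over a median background of 35 to 39.5, and in that channel between 90.9 and 98.7% of mouse probes exceeded background. Of the 44 genes, 40 were above background in the sample channel on all 8 arrays, and the exceptions are named below. Taf5 itself stood at 0.48 in control-kd line 1, 0.14 in control-kd line 2, -1.08 in Taf5-kd line 1 and -1.11 in Taf5-kd line 2, a 2.65-fold lower level in the Taf5-kd lines (adjusted p = 0.0267, limma). All 8 ES cell markers examined were above background on every array. Of 10 measured leukocyte and macrophage markers, 9 were, and 1 (Cd68) was lower in the Taf5-kd lines at -1.45. Probes carry no absolute zero, so a marker level of 0 means the parental level and not absence.

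Groups were compared with limma on 1 mean per line, 2 against 2, and a gene counted as changed where the p-value adjusted over all 25150 features was under 0.05. The comparisons of the 2 lines of a group rest on the spread between duplicate cultures and describe those clones only. The 2 groups share the parental pool, and the contrast between them shares its arrays with both comparisons to the parental level, so these are not independent of each other. Comparisons to the parental level test the ratio against 0 with the same common pool on every array. Their SEs and p-values therefore leave out the spread of the parental cells themselves. The number of lines limits the precision of every group comparison.

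Between the Taf5-kd and the control-kd lines, the share of these genes that changed was near that of all features. Bst2 and Psmb10 rose, 2 of 44 or 4.55%, against 4.50% of all features, and Irf9 and Trim25 fell, 2 of 44 or 4.55%, against 3.25%. These 4 calls were held by 16 of 22 other settings for Bst2, 15 of 22 for Psmb10, 16 of 23 for Irf9 and 15 of 22 for Trim25, and none of them was held under median centring or with any 1 of the 4 lines left out. These settings left few calls over all features as well, 51 higher and 55 lower of 25150 under median centring, 79 and 31 without Taf5-kd line 2 and 0 without any other line. The settings counted are not independent checks. Scaling between arrays (Aquantile) barely changes the ratios, with 1130 features higher and 818 lower, against 1133 and 817 in the main fit. The single-array fits described below are also among the settings. The number of settings that held a call is thus no measure of how firm it is. The median difference was 0.14 over the 44 genes and -0.0063 over all features. The largest differences, those of the Gbp genes and Irf1 at 2.32 to 2.74 and 2.10, did not pass, and for these genes the 2 Taf5-kd lines stood far apart from each other. On single arrays, all 4 Taf5-kd arrays lay above all 4 control-kd arrays for 20 of the 44 genes, against 18.1% of all features, and below them for 5 of 44, against 18.1%. When single arrays were fitted with the line as a random block and a replicate block for the array number, 16 genes passed as higher, against 12.4% of all features, and 5 as lower, against 10.2%. In simulated data this fit made many of its calls on unchanged genes, so it serves here as an alternative only.

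Against the parental pool, lower calls outnumbered higher ones among these genes in both groups. In control-kd, 11 of 44 genes (25.0%) were lower than in the parental pool, against 13.0% of all features, and 2 of 44 (4.55%) were higher, against 8.38%. The median was -0.26, against 0.0035 over all features, and 30 of the 44 genes (68.2%) were below 0 in both control-kd lines, against 37.2% of all features. In Taf5-kd, 8 of 44 (18.2%) were lower than in the parental pool, against 10.7%, and 4 of 44 (9.09%) were higher, against 7.74%, with a median of 0.039. That calls were more often lower in one group than in the other was not tested. With 1 control-kd line left out, 5 genes (without line 1; Ifitm1, Bst2, Ifnar2, Ifngr1 and Tapbp) or 2 genes (without line 2; Ifitm1 and Bst2) passed as lower in control-kd and Ddx58 as higher, where 824 or 779 of all 25150 features passed as lower and 351 or 303 as higher. With 1 Taf5-kd line left out none of the 44 genes, and 0 of all features, passed in Taf5-kd.

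The 2 Taf5-kd clones differed from each other in many of these genes. In Taf5-kd line 1, 21 of 44 genes (47.7%) were higher than in line 2, against 9.49% of all features, and 1 of 44 (2.27%), Ifitm3, was lower, against 4.06%. The median difference was 0.18, against 0.0044 over all features. Under median centring 6 of the 44 passed as higher and none as lower, where 74 of all 25150 features passed as higher and 20 as lower. Between the control-kd clones 9 of 44 genes (20.5%) were higher in line 1, against 6.66% of all features, and 3 of 44 (6.82%) were lower, against 6.76%, with differences of -0.47 to 0.43. For 23 of the 44 genes (52.3%) the order of the lines was Taf5-kd line 1, then Taf5-kd line 2, then both control-kd lines, an order found in 17.8% of all features. Whether the clones of one group differed more than those of the other was not tested gene by gene.

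**Figure D1:**
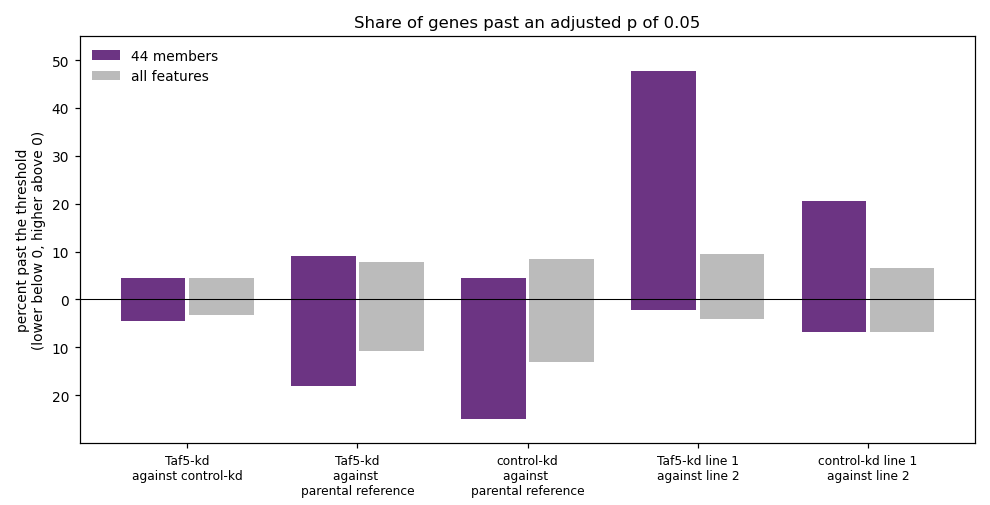
Percent of the 44 genes (purple) and of all 25150 features (grey) past an adjusted p of 0.05 in each of the 5 comparisons, with higher calls above 0 and lower calls below 0. The tallest bar is that of the genes higher in Taf5-kd line 1 than in line 2, 47.7% against 9.49% of all features, while the bars of Taf5-kd against control-kd are of about the same height as their background.

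**Figure D2:**
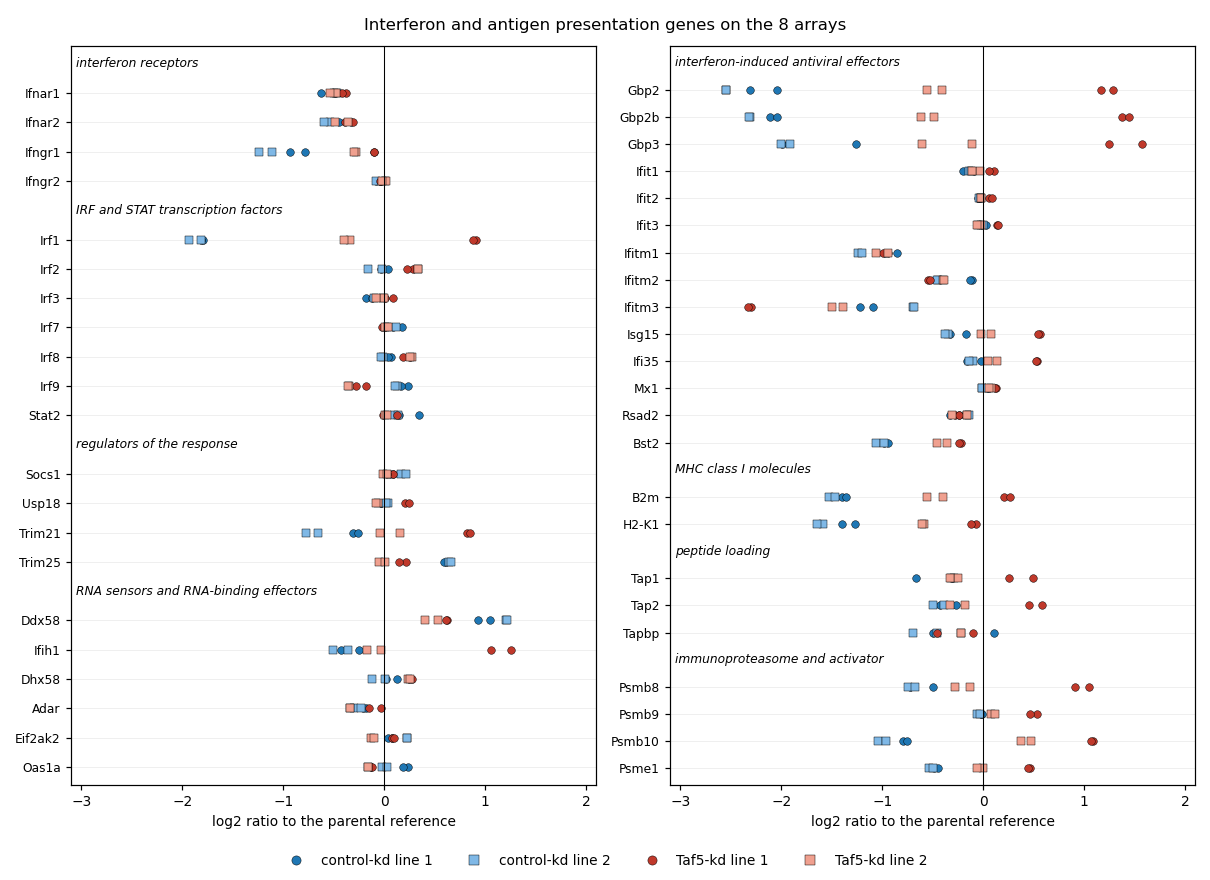
Log2 ratio to the parental pool of each of the 44 genes, with 1 point per array, 2 arrays per line, and the genes grouped by role. In the Gbp genes, Irf1, B2m and Psmb10 the control-kd arrays (blue) lie at -0.76 or lower, the Taf5-kd line 1 arrays (dark red) above 0, and the Taf5-kd line 2 arrays (light red) between them.

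Among the receptors, the type I chains were below the parental level in all 4 lines. Ifnar1 stood at -0.63 and -0.48 in control-kd line 1, -0.46 and -0.50 in control-kd line 2, -0.37 and -0.42 in Taf5-kd line 1 and -0.48 and -0.54 in Taf5-kd line 2. It was lower than in the parental pool in control-kd, at -0.52 ± 0.043 (SE; adjusted p = 0.0105), and in Taf5-kd, at -0.45 ± 0.043 (SE; adjusted p = 0.0139). Ifnar2, the partner chain, stood at -0.45 and -0.33 in control-kd line 1, -0.53 and -0.60 in control-kd line 2, -0.38 and -0.31 in Taf5-kd line 1 and -0.36 and -0.49 in Taf5-kd line 2. Its ratio was -0.48 ± 0.056 (SE; adjusted p = 0.0163) in control-kd and -0.39 ± 0.056 (SE; adjusted p = 0.0260) in Taf5-kd, but a second probe of Ifnar2 gave 0.043 for control-kd and 0.067 for Taf5-kd, on the other side of 0. For both chains the arrays of the groups overlapped, and the group differences were 0.065 and 0.092, neither of which passed.

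The ligand-binding chain of the interferon gamma receptor, Ifngr1, separated the groups more. Ifngr1 stood at -0.94 and -0.78 in control-kd line 1, -1.11 and -1.24 in control-kd line 2, -0.097 and -0.096 in Taf5-kd line 1 and -0.28 and -0.30 in Taf5-kd line 2, with 3 of 4 control-kd arrays above background. The control-kd lines were -1.02 ± 0.098 (SE; adjusted p = 0.0126) relative to the parental pool, and control-kd line 1 was above line 2 by 0.32 ± 0.065 (SE; adjusted p = 0.0135). The 4 Taf5-kd arrays lay above the 4 control-kd arrays, and the group difference of 0.82 ± 0.14 (SE; adjusted p = 0.0537) did not pass. Ifngr2, the signalling chain, lay within -0.082 to 0.021 on all 8 arrays and passed in none of the comparisons. Ifnar2, Ifnar1 and Ifngr2 lie near each other on chromosome 16 by the order of genes in RefSeq (assembly GRCm38.p6), with 1 protein-coding gene between Ifnar2 and Ifnar1 and none between Ifnar1 and Ifngr2.

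Of the 7 transcription factor genes, Irf1 moved most. Irf1, an activator of MHC class I and Gbp genes downstream of interferon gamma, stood at -1.79 and -1.81 in control-kd line 1, -1.93 and -1.82 in control-kd line 2, 0.91 and 0.88 in Taf5-kd line 1 and -0.34 and -0.40 in Taf5-kd line 2. The control-kd arrays were thus all low, the line 1 Taf5-kd arrays above the parental level and the line 2 arrays somewhat below it, with no overlap between the groups. In control-kd it was -1.84 ± 0.32 (SE; adjusted p = 0.0331) relative to the parental pool, a 3.58-fold lower level. Taf5-kd line 1 exceeded line 2 by 1.26 ± 0.054 (SE; adjusted p = 7.16e-06). The group difference of 2.10 ± 0.46 (SE; adjusted p = 0.0812) did not pass. A second Irf1 probe gave 0.88 between the groups and 0.67 between the Taf5-kd lines, in the same directions, and -0.61 for control-kd, which did not pass.

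Irf9, the DNA-binding subunit of a transcription factor complex that type I interferon activates, was the only factor to change between the groups. Irf9 stood at 0.24 and 0.17 in control-kd line 1, 0.13 and 0.10 in control-kd line 2, -0.28 and -0.18 in Taf5-kd line 1 and -0.35 and -0.35 in Taf5-kd line 2, and fell by 0.45 ± 0.065 (log2, SE; adjusted p = 0.0430), a 1.37-fold lower level. All 4 control-kd arrays lay above 0 and all 4 Taf5-kd arrays below it. In Taf5-kd it was -0.29 ± 0.046 (SE; adjusted p = 0.0309) relative to the parental pool. A second probe gave -0.22 for the group difference and -0.080 for Taf5-kd relative to the parental pool, neither of which passed. Irf9 lies close to Psme1 and Psme2 on chromosome 14 and differed in direction from Psme1.

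Irf2, a factor that can hold back Irf1 targets, stood at 0.039 and -0.033 in control-kd line 1, -0.16 and -0.022 in control-kd line 2, 0.28 and 0.23 in Taf5-kd line 1 and 0.34 and 0.34 in Taf5-kd line 2. It was above the parental level in Taf5-kd by 0.30 ± 0.041 (SE; adjusted p = 0.0242), and the groups, which did not overlap, differed by 0.34 ± 0.058 (SE; adjusted p = 0.0542). On 3 of 4 Taf5-kd arrays it was above background. Irf8, known from myeloid cells, stood at 0.063 and 0.037 in control-kd line 1, -0.013 and -0.035 in control-kd line 2, 0.19 and 0.25 in Taf5-kd line 1 and 0.28 and 0.25 in Taf5-kd line 2 and was above the parental level in Taf5-kd by 0.24 ± 0.034 (SE; adjusted p = 0.0253). Its second probe gave a group difference of 0.45 that passed, while the brightest gave 0.23 ± 0.049 (SE; adjusted p = 0.0773). Both genes lie on chromosome 8, where the median group difference over features brighter than the median feature was 0.33, about as large as theirs. Irf3, which acts directly downstream of the RNA sensors, Irf7, its interferon-induced relative, and Stat2 passed in no comparison, and their single arrays ran from -0.18 to 0.34.

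Of the response regulators, Trim25 fell and Trim21 differed between clones. Trim25, a ubiquitin ligase that activates the sensor encoded by Ddx58, stood at 0.61 and 0.59 in control-kd line 1, 0.64 and 0.67 in control-kd line 2, 0.21 and 0.15 in Taf5-kd line 1 and -0.049 and 0.0082 in Taf5-kd line 2. It was above the parental level in control-kd by 0.63 ± 0.059 (SE; adjusted p = 0.0121) and fell by 0.55 ± 0.083 (log2, SE; adjusted p = 0.0451) in Taf5-kd, a 1.46-fold lower level, to near the parental level. A second probe gave -0.58. Trim25 lies on chromosome 11, whose median over features brighter than the median feature differed the other way, at 0.27. Between the Taf5-kd lines Trim25 was 0.20 ± 0.047 (SE; adjusted p = 0.0255) higher in line 1, which the second probe, at 0.0025, did not show, while that probe passed between the control-kd lines at -0.23.

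Trim21, a cytosolic antibody receptor and ubiquitin ligase, stood at -0.31 and -0.26 in control-kd line 1, -0.77 and -0.66 in control-kd line 2, 0.82 and 0.85 in Taf5-kd line 1 and 0.15 and -0.042 in Taf5-kd line 2. All 4 Taf5-kd arrays lay above all 4 control-kd arrays, with line 1 far above line 2, by 0.78 ± 0.071 (SE; adjusted p = 0.000281). The control-kd lines also differed, by 0.43 ± 0.071 (SE; adjusted p = 0.00474), and the group difference of 0.94 ± 0.32 (SE; adjusted p = 0.176) did not pass. Usp18, which removes ISG15 and dampens the type I receptor, stood at -0.029 and -0.028 in control-kd line 1, 0.040 and 0.015 in control-kd line 2, 0.21 and 0.25 in Taf5-kd line 1 and -0.062 and -0.081 in Taf5-kd line 2. Its Taf5-kd line 1 arrays were the highest of the 8, above line 2 by 0.30 ± 0.044 (SE; adjusted p = 0.00293). Socs1, the JAK inhibitor, lay between -0.016 and 0.22 and passed in no comparison.

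Among the RNA sensors, the gene for RIG-I was high in every knockdown line and the gene for MDA5 in 1 line. Ddx58, which encodes RIG-I, stood at 1.05 and 0.93 in control-kd line 1, 1.21 and 1.21 in control-kd line 2, 0.62 and 0.61 in Taf5-kd line 1 and 0.41 and 0.53 in Taf5-kd line 2, all above the parental level. The excess was 1.10 ± 0.072 (SE; adjusted p = 0.00862) in control-kd and 0.54 ± 0.072 (SE; adjusted p = 0.0227) in Taf5-kd. The groups did not overlap, Taf5-kd being the lower, and their difference was -0.56 ± 0.10 (SE; adjusted p = 0.0612). Ddx58 had 5 probes. Of the other 4, 3 gave group differences of -0.89, -0.44 and -0.42, of which the first passed (adjusted p = 0.0373, limma over all probes), and the dimmest gave 0.38, with control-kd at -0.042 where the others were at 0.82 or above. Control-kd line 1 was below line 2, at -0.22 ± 0.059 (SE; adjusted p = 0.0433), a difference whose direction turned on 2 of the other probes and which did not pass on the remaining 2.

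Ifih1, which encodes MDA5, stood at -0.42 and -0.25 in control-kd line 1, -0.51 and -0.36 in control-kd line 2, 1.25 and 1.06 in Taf5-kd line 1 and -0.034 and -0.17 in Taf5-kd line 2. The line 1 Taf5-kd arrays were thus apart from the other 6, with line 1 above line 2 by 1.26 ± 0.091 (SE; adjusted p = 9.65e-05), a 2.39-fold difference, and the groups differing by 0.92 ± 0.46 (SE; adjusted p = 0.315). Its second probe gave 0.38 between the Taf5-kd lines. Dhx58, the gene of LGP2, stood at 0.13 and 0.020 in control-kd line 1, -0.13 and 0.0091 in control-kd line 2, 0.28 and 0.24 in Taf5-kd line 1 and 0.24 and 0.25 in Taf5-kd line 2. It was above the parental level in Taf5-kd by 0.25 ± 0.043 (SE; adjusted p = 0.0352), and its group difference of 0.24 stood beside a chromosome 11 median of 0.27. A second Dhx58 probe gave 0.038 for Taf5-kd, which did not pass.

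The effector enzymes of the RNA response moved little. Adar, the RNA-editing deaminase, stood at -0.21 and -0.18 in control-kd line 1, -0.30 and -0.23 in control-kd line 2, -0.036 and -0.15 in Taf5-kd line 1 and -0.34 and -0.34 in Taf5-kd line 2 and was higher in Taf5-kd line 1 than in line 2 by 0.25 ± 0.054 (SE; adjusted p = 0.0190), although 1 of its other 2 probes gave -0.0052 and the other, at 0.15, did not pass. The former also passed as lower than in the parental pool, at -0.13 in Taf5-kd and -0.17 in control-kd, where the brightest did not. Eif2ak2, the kinase PKR that halts translation, stood at 0.077 and 0.035 in control-kd line 1, 0.23 and 0.22 in control-kd line 2, 0.075 and 0.095 in Taf5-kd line 1 and -0.13 and -0.10 in Taf5-kd line 2, higher in Taf5-kd line 1 than in line 2 by 0.20 ± 0.044 (SE; adjusted p = 0.0192) and lower in control-kd line 1 than in line 2, at -0.17 ± 0.044 (SE; adjusted p = 0.0393). Oas1a, an oligoadenylate synthetase, stood at 0.24 and 0.19 in control-kd line 1, -0.018 and 0.027 in control-kd line 2, -0.13 and -0.12 in Taf5-kd line 1 and -0.16 and -0.16 in Taf5-kd line 2. Its Taf5-kd arrays were all below its control-kd arrays, the group difference being -0.25 ± 0.084 (SE; adjusted p = 0.170), and control-kd line 1 was above line 2 by 0.21 ± 0.045 (SE; adjusted p = 0.0180).

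The guanylate-binding proteins, interferon-induced GTPases that attack intracellular parasites, gave the largest differences of the 44 genes between the groups and between the Taf5-kd clones. Gbp2 stood at -2.31 and -2.04 in control-kd line 1, -2.55 and -2.55 in control-kd line 2, 1.29 and 1.17 in Taf5-kd line 1 and -0.40 and -0.55 in Taf5-kd line 2. Gbp2b stood at -2.11 and -2.04 in control-kd line 1, -2.31 and -2.32 in control-kd line 2, 1.37 and 1.44 in Taf5-kd line 1 and -0.49 and -0.62 in Taf5-kd line 2. Gbp3 stood at -2.0 and -1.26 in control-kd line 1, -2.0 and -1.92 in control-kd line 2, 1.57 and 1.25 in Taf5-kd line 1 and -0.11 and -0.60 in Taf5-kd line 2. In each of the 3 genes the control-kd arrays were all far under the parental level, the line 1 Taf5-kd arrays all above it, and the line 2 arrays in between, with no overlap between the groups.

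Gbp2 was -2.36 ± 0.44 (SE; adjusted p = 0.0380) relative to the parental pool in control-kd, a 5.14-fold lower level. For Gbp2b and Gbp3 the control-kd values of -2.20 and -1.79 did not pass (adjusted p = 0.0565 and 0.0710). Taf5-kd line 1 exceeded line 2 by 1.70 ± 0.090 (SE; adjusted p = 2.04e-05) for Gbp2, by 1.96 ± 0.058 (SE; adjusted p = 2.03e-06) for Gbp2b and by 1.76 ± 0.24 (SE; adjusted p = 0.00193) for Gbp3, or 3.26-, 3.90- and 3.39-fold. Between the groups the differences were 2.74 ± 0.63 (SE; adjusted p = 0.0892) for Gbp2, 2.62 ± 0.71 (SE; adjusted p = 0.119) for Gbp2b and 2.32 ± 0.65 (SE; adjusted p = 0.125) for Gbp3. For Gbp2 and Gbp2b control-kd line 1 was also above line 2, by 0.37 ± 0.090 (SE; adjusted p = 0.0285) and 0.24 ± 0.058 (SE; adjusted p = 0.0285), where the second turned to -0.11 under median centring. The 3 genes follow each other on chromosome 3 with no other protein-coding gene between them. Their sequences are alike and the probe sequences were not used here, so hybridisation of one transcript to the probe of another cannot be told apart from joint change.

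The RefSeq promoter windows of these 3 neighbours (GRCm38.p6, 250 bases before to 50 after the start) are shown with that of Isg15 because their genes were all higher in Taf5-kd line 1 than in line 2, and that of Bst2 because it is the only gene changed between the groups whose window held a match. All the windows shown were picked after the values had been seen. Windows were searched on both strands for the core of the ISRE, a GAAA block, any bases NN and a further GAAA block, and the capitals mark a match in either orientation. The first letter of the match lies at position -59 from the start in Gbp2, -137 in Gbp2b, -45 and -39 in Gbp3, -78, -72 and -66 in Isg15, and -130 and -124 in Bst2.
Gbp2, chr3:142620413-142620712, plus strand: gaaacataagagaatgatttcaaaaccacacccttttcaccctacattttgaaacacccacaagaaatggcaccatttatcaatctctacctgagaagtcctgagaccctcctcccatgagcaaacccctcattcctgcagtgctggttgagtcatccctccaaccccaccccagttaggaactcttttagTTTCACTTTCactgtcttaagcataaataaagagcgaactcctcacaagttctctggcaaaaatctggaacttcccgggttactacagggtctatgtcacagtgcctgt
Gbp2b, chr3:142594597-142594896, plus strand: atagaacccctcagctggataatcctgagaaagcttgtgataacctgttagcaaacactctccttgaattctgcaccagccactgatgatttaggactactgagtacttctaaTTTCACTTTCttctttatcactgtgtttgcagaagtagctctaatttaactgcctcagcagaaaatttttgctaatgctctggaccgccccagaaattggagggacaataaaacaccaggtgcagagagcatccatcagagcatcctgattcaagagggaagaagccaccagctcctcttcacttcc
Gbp3, chr3:142559794-142560093, plus strand: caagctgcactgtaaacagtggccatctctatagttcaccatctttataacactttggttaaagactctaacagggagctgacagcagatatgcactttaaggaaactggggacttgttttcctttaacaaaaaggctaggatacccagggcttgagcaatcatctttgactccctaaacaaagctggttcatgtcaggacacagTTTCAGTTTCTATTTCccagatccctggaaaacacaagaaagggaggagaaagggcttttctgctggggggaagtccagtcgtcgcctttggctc
Isg15, chr4:156200769-156201068, minus strand: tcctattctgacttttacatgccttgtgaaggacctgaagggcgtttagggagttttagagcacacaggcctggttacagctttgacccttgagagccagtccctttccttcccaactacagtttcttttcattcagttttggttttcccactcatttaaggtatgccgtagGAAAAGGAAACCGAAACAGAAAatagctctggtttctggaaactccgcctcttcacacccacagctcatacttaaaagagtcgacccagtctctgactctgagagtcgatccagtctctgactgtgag
Bst2, chr8:71537423-71537722, minus strand: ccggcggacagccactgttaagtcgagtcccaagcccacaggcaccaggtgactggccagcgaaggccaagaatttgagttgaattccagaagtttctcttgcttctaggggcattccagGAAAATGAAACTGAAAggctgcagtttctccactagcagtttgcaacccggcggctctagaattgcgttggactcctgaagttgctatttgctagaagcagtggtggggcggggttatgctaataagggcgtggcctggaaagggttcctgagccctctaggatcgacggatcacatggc

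Of the 46 listed genes, 42 had a promoter window in the RefSeq table. The ISRE core was found in 20 of these 42 (47.6%), against 3.99% of the 27025 genes of the table. The TATA box letters TATAAA were found on the gene's own strand, from position -45 to -15, in 3 of 42 (7.14%), against 2.57%. Matches to the ISRE core were found in genes that differed between the Taf5-kd lines (Gbp2, Gbp2b, Gbp3, Isg15, B2m, Psme1, Trim21, Ifih1, Eif2ak2, Ifit3, Ifitm3). They were also found in genes that passed in none of the comparisons (Ifit1, on a dim probe, Stat2, Socs1). The windows of other genes that differed between the Taf5-kd lines held no match (Irf1, Trim25, Adar, Ifi35, H2-K1, Tap1, Psmb8, Psmb9, Psmb10). A match describes letters in a window and does not show that a factor was bound.

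Isg15, a ubiquitin-like protein joined to other proteins in the antiviral response, stood at -0.33 and -0.17 in control-kd line 1, -0.35 and -0.38 in control-kd line 2, 0.57 and 0.54 in Taf5-kd line 1 and 0.082 and -0.024 in Taf5-kd line 2. The groups did not overlap, and line 1 of Taf5-kd was above line 2 by 0.52 ± 0.063 (SE; adjusted p = 0.00112). Ifi35 stood at -0.17 and -0.019 in control-kd line 1, -0.099 and -0.14 in control-kd line 2, 0.54 and 0.52 in Taf5-kd line 1 and 0.13 and 0.045 in Taf5-kd line 2, with line 1 above line 2 by 0.44 ± 0.060 (SE; adjusted p = 0.00212) and a group difference of 0.41 ± 0.16 (SE; adjusted p = 0.221). It lies on chromosome 11.

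Bst2, or tetherin, which holds budding virus at the cell surface, rose between the groups. Bst2 stood at -0.99 and -0.94 in control-kd line 1, -1.06 and -0.99 in control-kd line 2, -0.22 and -0.24 in Taf5-kd line 1 and -0.36 and -0.46 in Taf5-kd line 2, so the groups did not overlap and every array was below the parental level. The group means were -0.99 ± 0.050 (SD, n = 4 arrays) and -0.32 ± 0.11 (SD, n = 4 arrays). The rise was 0.67 ± 0.077 (SE; adjusted p = 0.0330), a 1.59-fold higher level, and 0.34 beyond the chromosome 8 median of 0.33. Relative to the parental pool it was -0.99 ± 0.055 (SE; adjusted p = 0.00826) in control-kd and -0.32 ± 0.055 (SE; adjusted p = 0.0346) in Taf5-kd. Between the Taf5-kd lines it did not pass (0.18, adjusted p = 0.0655).

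The Ifitm genes, whose membrane proteins block virus entry and which ES cells are known to express at a high level, went another way. Ifitm1 stood at -0.97 and -0.86 in control-kd line 1, -1.25 and -1.20 in control-kd line 2, -0.95 and -0.99 in Taf5-kd line 1 and -0.94 and -1.06 in Taf5-kd line 2. It was lower than in the parental pool in control-kd, at -1.07 ± 0.083 (SE; adjusted p = 0.00996), and in Taf5-kd, at -0.99 ± 0.083 (SE; adjusted p = 0.0123), and the groups overlapped. Ifitm3 stood at -1.22 and -1.10 in control-kd line 1, -0.69 and -0.68 in control-kd line 2, -2.30 and -2.33 in Taf5-kd line 1 and -1.39 and -1.50 in Taf5-kd line 2. All its arrays were below the parental level, those of Taf5-kd line 1 the lowest. It was -1.88 ± 0.25 (SE; adjusted p = 0.0232) relative to the parental pool in Taf5-kd, and it was the 1 gene of the 44 lower in Taf5-kd line 1 than in line 2, at -0.87 ± 0.059 (SE; adjusted p = 6.53e-05).

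The group difference of Ifitm3, -0.96 ± 0.36 (SE; adjusted p = 0.205), did not pass, though the arrays of the groups did not overlap. Control-kd line 1 was below line 2 for Ifitm3, at -0.47 ± 0.059 (SE; adjusted p = 0.00121), and above it for Ifitm1, by 0.31 ± 0.061 (SE; adjusted p = 0.0119), and Ifitm2, by 0.33 ± 0.042 (SE; adjusted p = 0.00144). Under median centring the last pair of differences turned to -0.18 and -0.15, and the median over all features moved to -0.13, so their direction depends on the scaling. Ifitm2 stood at -0.11 and -0.13 in control-kd line 1, -0.45 and -0.45 in control-kd line 2, -0.54 and -0.53 in Taf5-kd line 1 and -0.40 and -0.39 in Taf5-kd line 2 and was below the parental level in Taf5-kd, at -0.47 ± 0.095 (SE; adjusted p = 0.0483), where a second probe at -0.32 did not pass. Ifitm2, Ifitm1 and Ifitm3 follow each other on chromosome 7 with no protein-coding gene between them.

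Several of the best known interferon-induced genes gave ratios near 0 in all lines, on dim probes. The single arrays of Ifit1, Ifit2, Ifit3 and Mx1, which encode RNA-binding and dynamin-like antiviral proteins, ran from -0.20 to 0.15. Of these Ifit3 was higher in Taf5-kd line 1 than in line 2, by 0.18 ± 0.046 (SE; adjusted p = 0.0333), with 2 of 4 control-kd and 3 of 4 Taf5-kd arrays above background, and the other 3 passed in no comparison. Rsad2, or viperin, stood at -0.33 and -0.24 in control-kd line 1, -0.16 and -0.14 in control-kd line 2, -0.27 and -0.24 in Taf5-kd line 1 and -0.16 and -0.31 in Taf5-kd line 2, lower than in the parental pool in control-kd (-0.22 ± 0.044 (SE; adjusted p = 0.0441)) and Taf5-kd (-0.25 ± 0.044 (SE; adjusted p = 0.0386)), but its other 2 probes gave 0.025 and 0.037 for control-kd and 0.017 and -0.0021 for Taf5-kd.

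The MHC class I genes were low in the control-kd lines and nearer the parental level in the Taf5-kd lines. B2m, the light chain of every class I molecule, stood at -1.39 and -1.36 in control-kd line 1, -1.53 and -1.46 in control-kd line 2, 0.20 and 0.26 in Taf5-kd line 1 and -0.40 and -0.56 in Taf5-kd line 2. H2-K1, a classical heavy chain, stood at -1.40 and -1.27 in control-kd line 1, -1.59 and -1.65 in control-kd line 2, -0.075 and -0.12 in Taf5-kd line 1 and -0.59 and -0.61 in Taf5-kd line 2. For both genes the groups did not overlap, and the lines ran in the same order, Taf5-kd line 1 highest and control-kd line 2 lowest.

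In control-kd B2m was -1.44 ± 0.19 (SE; adjusted p = 0.0190) relative to the parental pool, a 2.70-fold lower level, and H2-K1 was -1.48 ± 0.15 (SE; adjusted p = 0.0132), a 2.78-fold lower level. Taf5-kd line 1 was above line 2 by 0.71 ± 0.062 (SE; adjusted p = 0.000227) for B2m and 0.50 ± 0.056 (SE; adjusted p = 0.000741) for H2-K1. The group differences of 1.31 ± 0.26 (SE; adjusted p = 0.0706) and 1.13 ± 0.21 (SE; adjusted p = 0.0625) did not pass. A second bright probe of B2m gave 1.36 between the groups and -1.47 for control-kd, and another, dimmer one 0.068 and -0.049, with 0.091 between the Taf5-kd lines, which did not pass. The other probes of H2-K1 gave 0.43 and 0.34 between the groups, 0.26, which passed, and 0.16, which did not, between the Taf5-kd lines, and 0.12 and 0.16 between the control-kd lines, neither of which passed. H2-K1 was also higher in control-kd line 1 than in line 2, by 0.28 ± 0.056 (SE; adjusted p = 0.0117), which turned to -0.17 under median centring. Class I heavy chain genes are alike in sequence, so the H2-K1 probes may read related transcripts. The promoter window of B2m is shown as that of a gene whose control by the ISRE is well known, with the core in capitals from position -139.
B2m, chr2:122147437-122147736, plus strand: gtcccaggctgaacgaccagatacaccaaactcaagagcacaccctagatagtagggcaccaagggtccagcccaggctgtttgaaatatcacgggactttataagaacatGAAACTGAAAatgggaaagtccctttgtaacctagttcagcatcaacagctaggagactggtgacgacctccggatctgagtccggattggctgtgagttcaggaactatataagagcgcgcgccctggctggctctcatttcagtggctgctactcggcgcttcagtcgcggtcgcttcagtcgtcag

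The transporter genes differed between the Taf5-kd clones. Tap1 and Tap2 form the pump that brings peptides into the endoplasmic reticulum. Tap1 stood at -0.67 and -0.31 in control-kd line 1, -0.29 and -0.32 in control-kd line 2, 0.49 and 0.26 in Taf5-kd line 1 and -0.25 and -0.33 in Taf5-kd line 2. Tap2 stood at -0.43 and -0.27 in control-kd line 1, -0.50 and -0.39 in control-kd line 2, 0.58 and 0.46 in Taf5-kd line 1 and -0.18 and -0.33 in Taf5-kd line 2. In both genes only the line 1 Taf5-kd arrays were above the parental level, and line 2 overlapped with the control-kd arrays. The differences between the Taf5-kd lines were 0.66 ± 0.12 (SE; adjusted p = 0.00655) and 0.78 ± 0.079 (SE; adjusted p = 0.000484). Tapbp, or tapasin, which joins the pump to class I molecules, ran from -0.69 to 0.11 and passed in no comparison, with its 2 control-kd line 1 arrays apart at 0.11 and -0.50. The probe shown is a very bright one, at 55467 to 59428 in the Cy5 channel and 8395 to 13726 in the Cy3 channel over the 8 arrays, with a dye term of 2.60 where that of every other gene of the 44 was at most 0.19 in size. Its second probe lay within -0.14 to 0.0075 on all arrays.

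The immunoproteasome subunits, which replace constitutive ones and change how peptides are cut, were higher on all Taf5-kd than on all control-kd arrays. Psmb10 stood at -0.80 and -0.76 in control-kd line 1, -1.04 and -0.96 in control-kd line 2, 1.09 and 1.06 in Taf5-kd line 1 and 0.47 and 0.38 in Taf5-kd line 2, below the parental level in control-kd and above it in Taf5-kd. The group means were -0.89 ± 0.13 (SD, n = 4 arrays) and 0.75 ± 0.38 (SD, n = 4 arrays). It rose by 1.64 ± 0.25 (SE; adjusted p = 0.0458), a 3.12-fold higher level, and by 1.31 beyond the chromosome 8 median. Taf5-kd line 1 was above line 2 by 0.65 ± 0.052 (SE; adjusted p = 0.000155) and control-kd line 1 above line 2 by 0.22 ± 0.052 (SE; adjusted p = 0.0239), the latter turning to -0.20 under median centring. In control-kd it was -0.89 ± 0.18 (SE; adjusted p = 0.0425) relative to the parental pool.

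Psmb8 stood at -0.73 and -0.50 in control-kd line 1, -0.74 and -0.67 in control-kd line 2, 1.05 and 0.91 in Taf5-kd line 1 and -0.13 and -0.28 in Taf5-kd line 2, with 3 of 4 Taf5-kd arrays above background. Psmb9 stood at -0.024 and -0.015 in control-kd line 1, -0.061 and -0.032 in control-kd line 2, 0.54 and 0.46 in Taf5-kd line 1 and 0.081 and 0.12 in Taf5-kd line 2. Line 1 of Taf5-kd was above line 2 by 1.18 ± 0.088 (SE; adjusted p = 0.000110) for Psmb8 and by 0.40 ± 0.047 (SE; adjusted p = 0.000998) for Psmb9, and the group differences of 1.05 and 0.33 did not pass. A second Psmb8 probe gave 1.72 between the Taf5-kd lines and 1.77 between the groups. Psme1, the activator subunit PA28 alpha, stood at -0.49 and -0.44 in control-kd line 1, -0.53 and -0.50 in control-kd line 2, 0.46 and 0.44 in Taf5-kd line 1 and -0.0012 and -0.059 in Taf5-kd line 2, with line 1 above line 2 by 0.48 ± 0.046 (SE; adjusted p = 0.000355) and a group difference of 0.70 ± 0.18 (SE; adjusted p = 0.106). Psmb9, Tap1, Psmb8 and Tap2 follow each other on chromosome 17 with no other protein-coding gene between them, and all 4 were higher in Taf5-kd line 1 than in line 2.

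**Figure D3:**
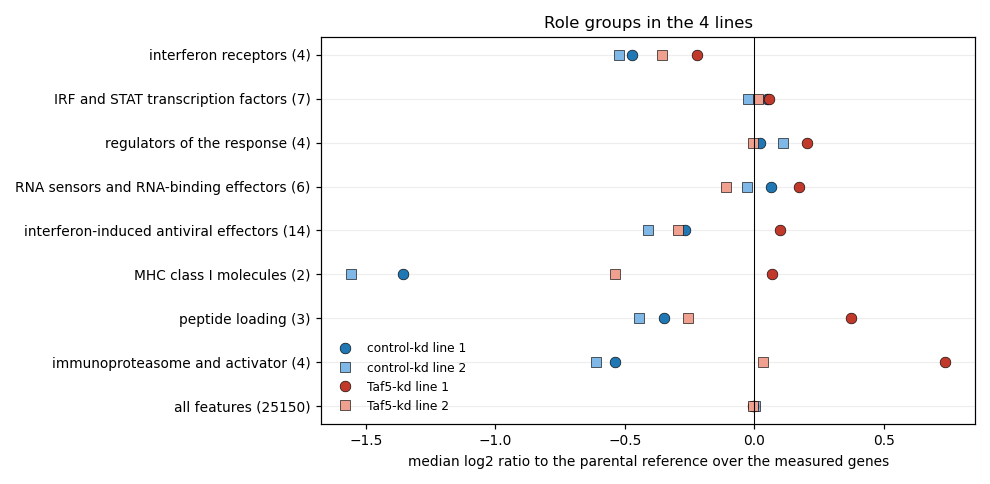
Median log2 ratio to the parental pool over the measured genes of each role, in each of the 4 lines, with the median of all features at the bottom. The MHC class I medians of the control-kd lines lie at -1.36 and -1.56 and that of Taf5-kd line 1 at 0.067, while the transcription factor medians of all lines lie between -0.024 and 0.056.

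**Figure D4:**
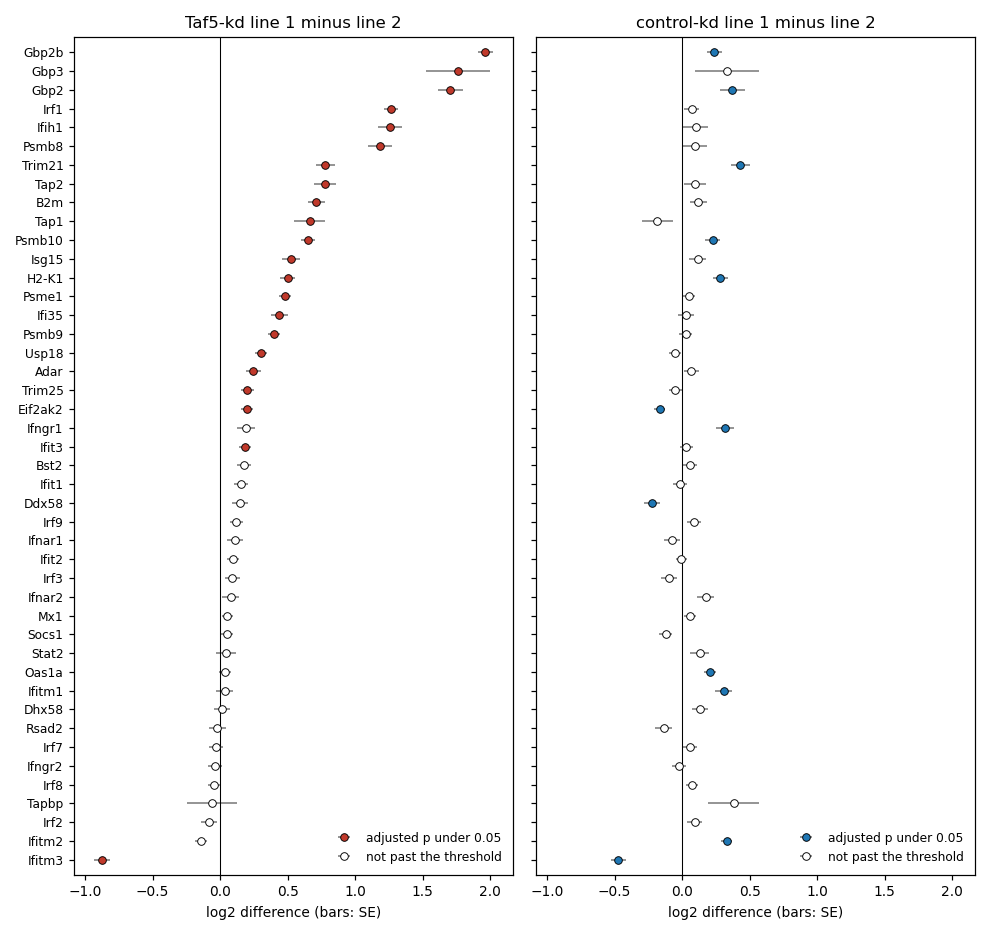
Log2 difference between line 1 and line 2 of the Taf5-kd clones (left) and of the control-kd clones (right) for each of the 44 genes, in the order of the left panel, with the SE as bars and filled points past an adjusted p of 0.05. On the left 21 filled points lie above 0, led by the 3 Gbp genes, and Ifitm3 lies at -0.87, while on the right all points lie within -0.47 to 0.43, and 5 of the right-hand differences (H2-K1, Ifitm1, Psmb10, Ifitm2, Gbp2b) turn sign under median centring.

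Over the roles, the calls between the Taf5-kd clones took in all 4 measured immunoproteasome and activator genes, both MHC class I genes, 2 of 3 peptide loading genes and 6 of 14 antiviral effectors as higher in line 1. They took in 1 of 7 transcription factors, 3 of 4 regulators, 3 of 6 RNA sensors and effectors, and none of the 4 receptors. Of all features, 9.49% were higher in line 1. The medians of line 1 minus line 2 were 0.57 for the immunoproteasome group, 0.61 for MHC class I, 0.66 for peptide loading and 0.17 for the antiviral effectors.

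Other quantities moved with the difference between the Taf5-kd clones. Of all features, 4.06% were lower in line 1 and 9.49% higher. Of 8 ES cell markers 5 were lower in line 1 and none higher, with a median difference of -0.36 and levels summed over the list of -2.88 in line 1 and 0.50 in line 2. Of 10 fibroblast and feeder markers 1 was higher and 3 lower, and of 10 leukocyte and macrophage markers none passed in either direction. In the sample channel 98.7 and 94.9% of probes were above background on the line 1 arrays and 94.6 and 90.9% on those of line 2. The part of these in the result was not tested.

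Some stromal markers were low in control-kd too. Of the 10 fibroblast and feeder markers 5 were lower in control-kd than in the parental pool, against 13.0% of all features, and none higher, against 8.38%. They were led by Col1a1, a collagen gene of fibroblasts, at -2.88 in control-kd line 1, -3.31 in control-kd line 2, -2.03 in Taf5-kd line 1 and -0.68 in Taf5-kd line 2. Levels summed over the list were -4.36 in control-kd line 1, -3.06 in control-kd line 2, -3.38 in Taf5-kd line 1 and -1.52 in Taf5-kd line 2. The sum of Taf5-kd line 1 was below that of control-kd line 2, which includes a high value of Pdgfra. Pdgfra, a further receptor gene of the list, picked after its values had been seen, was high in control-kd line 2 alone, standing at -0.010 in control-kd line 1, 2.09 in control-kd line 2, 0.11 in Taf5-kd line 1 and 0.26 in Taf5-kd line 2. None of the 10 passed between the groups, where Col1a1 differed by 1.74 ± 0.51 (SE; adjusted p = 0.137) and Pdgfrb, a growth factor receptor of stromal cells, by 0.27 ± 0.045 (SE; adjusted p = 0.0530). For the leukocyte and macrophage markers the sums were 0.37 and 0.99 in control-kd and -1.23 and -1.18 in Taf5-kd. Cd68, which differed by -1.45, weighs most in these sums and was the only 1 of 10 to pass between the groups. The medians of the list were near 0, at 0.016 and 0.029 in control-kd and -0.049 and -0.027 in Taf5-kd. In bulk RNA, fewer cells of a type cannot be told apart from less RNA per cell, and the part of stromal cells in the parental level was not tested.

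ES cell markers also differed between the groups on single arrays. Their sums were 4.48 (line 1) and 4.18 (line 2) for control-kd and -2.88 (line 1) and 0.50 (line 2) for Taf5-kd, and Esrrb, a factor of naive pluripotency, was the 1 marker of 8 to pass, at -1.56 ± 0.16 (SE; adjusted p = 0.0292). Of all features, 3.25% were lower in Taf5-kd than in control-kd. The part of the marker differences in the interferon genes was not tested.

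Chromosomes 8 and 11 stood apart as a whole. Chromosome medians were taken over features brighter than the median feature. The median differences of chromosomes 8 and 11 between the groups were 0.33 and 0.27, while all other chromosomes lay within -0.054 to 0.045. Of the 44 genes 8 lie on these chromosomes, among them Bst2, Psmb10 and Trim25, 3 of the 4 that changed between the groups. Leaving these chromosomes out keeps 22815 of all 25150 features. With them in, 1133 of all features passed as higher and 817 as lower, so calls over all features also became fewer without them. Fitted without both chromosomes, none of the other 36 genes passed, where 410 of all 22815 remaining features passed as higher and 503 as lower, Irf9 having an adjusted p of 0.0531, within a range of 0.00173 to 0.307 over its alternatives. The difference of Irf1 was 1.83 and that of Ifi35 0.14 beyond the chromosome 11 median. The part of chromosome-wide shifts in these values was not tested.

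Other genes of the same pathways were described from lists, beside the 4.50% of all features that rose and the 3.25% that fell between the groups. Of 17 measured genes of interferon and JAK-STAT signalling none rose and 1 fell between the groups, the JAK kinase gene Tyk2, at -0.38 ± 0.061 (SE; adjusted p = 0.0494), and the median was -0.051. Of 18 genes of nucleic acid sensing none rose and 1 fell, Nfkb1, an NF-kB subunit, at -0.64 ± 0.044 (SE; adjusted p = 0.0241), with a median of -0.056. Its lines stood at 0.77 in control-kd line 1, 0.74 in control-kd line 2, 0.15 in Taf5-kd line 1 and 0.093 in Taf5-kd line 2. Each of these falls was from a control-kd level above the parental one.

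Of 38 other interferon-induced genes none rose and 1 fell between the groups, Oas2, an oligoadenylate synthetase like Oas1a, at -0.74 ± 0.058 (SE; adjusted p = 0.0244), with lines at 0.52 in control-kd line 1, 0.54 in control-kd line 2, -0.15 in Taf5-kd line 1 and -0.27 in Taf5-kd line 2. The median was 0.10. Between the Taf5-kd lines 12 of these 38 were higher in line 1, against 9.49% of all features, and none lower, against 4.06%, with a median of 0.10. Among the 12 were Gbp4, Gbp6, Igtp, Irgm1, Irgm2 and Iigp1, which encode further GTPases of the Gbp and Irg families. Between the control-kd lines 4 were higher in line 1, against 6.66% of all features, and 2 lower, against 6.76%.

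Of 23 other antigen presentation genes 5 rose between the groups, against 4.50% of all features, and none fell, against 3.25%, with a median of 0.032. Rfxap, a subunit of the factor that binds MHC class II promoters, rose by 0.94 ± 0.084 (SE; adjusted p = 0.0267) and stood at -0.47 in control-kd line 1, -0.51 in control-kd line 2, 0.55 in Taf5-kd line 1 and 0.35 in Taf5-kd line 2. H2-Q10, a class I gene known from liver, rose by 0.66 ± 0.095 (SE; adjusted p = 0.0425), with the same reservation on related transcripts as H2-K1. The chaperone gene Canx rose by 0.62 ± 0.048 (SE; adjusted p = 0.0245) and the tapasin-like gene Tapbpl by 0.59 ± 0.093 (SE; adjusted p = 0.0475). The remaining gene that rose was Rfxank. The part of chromosome-wide shifts in these 5 rises was not tested. Against the parental pool 8 of the 23 were lower in control-kd, against 13.0% of all features, and none higher, against 8.38%.

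Of 16 measured constitutive proteasome subunits and activators 2 rose between the groups, Psmb6 by 0.55 ± 0.061 (SE; adjusted p = 0.0312) and Psmb3 by 0.52 ± 0.053 (SE; adjusted p = 0.0287), and none fell, with a median of 0.079 against 0.87 over the 4 immunoproteasome and activator genes. The difference of Psmb6 was above the 0.33 of Psmb9, which replaces it in the immunoproteasome, and that between the lists was not tested. Psmb6 and Psmb3 both lie on chromosome 11. Between the Taf5-kd lines 1 of the 16 was higher in line 1, where 9.49% of all features were, with a median of 0.060 against 0.57.

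In the authors' deposited table, whose test the sources used here do not name, the p-value of Taf5-kd against control-kd was under 0.05 for 14 of the 44 genes, against 10.3% of all probes. For each Taf5-kd line against each control-kd line, comparisons in the authors' deposited table that share arrays, the counts were 17 and 19 of 44 for line 1, against 7.06 and 8.24% of all probes, and 14 and 20 of 44 for line 2, against 8.77 and 8.59%. Against the reference, the authors' deposited table has 17 of 44 for control-kd, against 7.85% of all probes, and 3 of 44 for Taf5-kd, against 4.96%. The authors' deposited table gives log2 differences between the groups of 2.97 for Gbp2, 2.12 for Irf1, 1.28 for B2m and -0.59 for Trim25.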

How the data were processed

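Per the file headers, the deposited scanner tables list 45220 spots with a mean intensity per channel and the median and SD of the background around the spot, and all values reported here start from these. A matrix of processed log2 ratios of sample over reference was also deposited by the authors and served as an alternative. Its background treatment and its normalization are not given in the labels. The authors' table of comparisons gives, per the file headers, a log2 difference and a p-value for each comparison, and the sources used here do not name the test.

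Mouse probes make up 41174 of the spots. A single symbol is annotated for 34186 of these and none for 6988, and 3726 outdated symbols were replaced through RefSeq synonyms (GRCm38.p6). Values were computed with limma 3.58.1 and statmod 1.5.0 in R 4.3.3: background correction by normexp with an offset of 50, loess within each array with the control spots at weight 0, and each ratio set as sample over reference from the dye labels. Ratios with median centring in place of loess, taken over bright probes only, correlated at 0.815 to 0.961 with the authors' values. The loess ratios were not compared in this way. A probe was kept, as 40860 were and 314 were not, if its signal in either channel exceeded background by 2 background SDs on 4 or more of the 8 arrays. Taking the brightest probe per gene gave 25150 features, of which 18258 carry a symbol.

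Groups were compared on line means, 2 lines against 2, by lmFit and eBayes, two-sided, with Benjamini-Hochberg adjustment over all features and a threshold of 0.05. Lines of a group were compared on single arrays with a term for the dye. Per-array values have that term removed. The array number within a line marks the dye, and same-numbered arrays deviated together (correlation 0.700 to 0.829), so it was treated as a replicate block. The line means hold both dyes, so the block cancels in them. The scripts were tested on simulated data. There the fit of single arrays with the line as a random block made many calls on unchanged genes.

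The members, lists, motifs, alternatives and the rule for the genes described in full were chosen with earlier results of these data known. The rule takes members past the threshold in any of the 5 comparisons, or with groups that do not overlap on any array and differ by at least 0.5, and, from each list, at most 4 called genes by size of change, or, with no call, the 2 of smallest p. The other members are given by range. The normexp offset of 10 and the fit without chromosomes 8 and 11 were added later. Promoter windows are from RefSeq, build GRCm38.p6, and the build behind the array design is not given in the sources used here. A further promoter motif is not reported here. Plots were drawn in Python with matplotlib and pandas.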

Additional observations from a re-analysis of the deposited data

Results flagged for a closer look

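In 3 of the 88 groups of 4 arrays examined (44 genes in 2 groups), 1 array lay far from the other 3, relative to the range of the group. Chance gives about 1 in 20 for 4 independent values. The arrays here come in pairs from the same clone, so that rate need not hold. All 3 were control-kd groups. Tap1 stood at -0.667 on control-kd replicate 1 and between -0.320 and -0.289 on the other 3 arrays. Gbp3 stood at -1.26 on control-kd replicate 2 and between -2.0 and -1.92 on the others. Irf1 stood at -1.93 on control-kd replicate 3 and between -1.82 and -1.79 on the others.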

How the results depend on the processing

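Counts of members past the threshold are given as higher and lower, with those of all 25150 features after "of", beside the counts reported above of 2 and 2 (Taf5-kd against control-kd), 4 and 8 (Taf5-kd against parental), 2 and 11 (control-kd against parental), 21 and 1 (Taf5-kd line 1 against line 2) and 9 and 3 (control-kd line 1 against line 2). On single arrays with line as a random block and the replicate block the first 3 comparisons gave 16 and 5 (of 3114 and 2559), 8 and 10 (of 3528 and 4325), and 4 and 17 (of 3520 and 4723), and without the replicate block 17 and 5 (of 3118 and 2476), 8 and 10 (of 3501 and 4261), and 3 and 21 (of 3451 and 4639). Line means with no replicate block gave 17 and 1 (of 656 and 267) between the Taf5-kd lines and 1 and 1 (of 419 and 517) between the control-kd lines. Median centring in place of loess gave, in the same order, 0 and 0 (of 51 and 55), 0 and 1 (of 29 and 119), 2 and 9 (of 480 and 691), 6 and 0 (of 74 and 20), and 0 and 0 (of 13 and 309). Under it control-kd line 1 minus line 2 turned to -0.171 for H2-K1, -0.178 for Ifitm1, -0.199 for Psmb10, -0.153 for Ifitm2 and -0.109 for Gbp2b, none of which passed. Of the 63 results of single members that had passed, these 5 were the ones to change sign under any alternative run, and of the 157 that had not passed 57 did. For Taf5-kd against control-kd the counts were 5 and 3 without background subtraction (of 1394 and 934) and with the authors' processed values (of 1486 and 998), 6 and 3 with a normexp offset of 10 (of 1370 and 935), and 4 and 2 with the mean over the probes of a gene (of 1123 and 834). That mean gave 3 and 5 (of 2003 and 2777) for Taf5-kd against parental, and the offset of 10 gave 7 and 1 (of 1162 and 1122) between the control-kd lines. Both the offset and the fit without chromosomes 8 and 11 were chosen after the data had been seen. The latter, over 36 members and 22815 features, gave 0 and 0 (of 410 and 503), 1 and 6 (of 1347 and 2419), and 1 and 8 (of 1983 and 2686) in the first 3 comparisons.

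Leaving out 1 line gave 0 and 0 for Taf5-kd against control-kd without either control-kd line or Taf5-kd line 1 (of 0 and 0 each), and 3 and 0 without Taf5-kd line 2 (of 79 and 31), the lone line being assumed to vary like the others. Control-kd against parental gave 1 and 5 (of 351 and 824) when control-kd line 1 was left out, 1 and 2 (of 303 and 779) when line 2 was, and 2 and 18 (of 1362 and 2714) without Taf5-kd line 1 or line 2. Taf5-kd against parental gave 0 and 0 (of 0 and 0) without Taf5-kd line 1 or line 2. Leaving out 1 array in turn gave 0 to 6 higher and 1 to 3 lower (of 804 to 1498 and 603 to 1022) for Taf5-kd against control-kd (0 higher without Taf5-kd replicate 3, 6 without Taf5-kd replicate 4, 4 without control-kd replicate 2, and 1 lower without control-kd replicate 1, Taf5-kd replicate 1 or Taf5-kd replicate 2), 3 to 5 and 7 to 8 (of 1658 to 1974 and 2252 to 2717) for Taf5-kd against parental, and 2 to 4 and 9 to 12 (of 1687 to 2187 and 2740 to 3424) for control-kd against parental. The cause of these changes was not tested.

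The 2 lines per group and, for Ifngr1, Irf2, Ifit3 and Psmb8, arrays not above background limit what can be called.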
